A study of Mus musculus with 30 samples.

Results

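Foxq1, Foxa1, Foxa2, Foxa3, Foxo1, Foxo3 and Foxp1 are 7 forkhead genes whose transcripts were followed in mouse liver across age, time of day and deletion of Egr-1. They were chosen by name, as 7 of 54429 rows of the count table of the time course and 7 of 55471 rows of the count table of the genotype cohort. Foxq1 was selected on the genotype cohort itself, where it was 1 of 2 of 14843 genes whose difference between genotypes varied with age, so its levels there are described without a test. The other 6 were listed as forkhead factors of the liver.

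Whole livers of male mice on a 12-h light and 12-h dark cycle with chow always available were used. The time course held 18 libraries of C57BL/6J mice, 1 library at each of zeitgeber time (ZT, hours after lights on) 1, 5, 9, 13, 17 and 21 at 2, 6 and 12 months of age. The genotype cohort held 12 libraries, WT littermates and liver-specific Egr-1 knockouts (KO) of 2, 6 and 12 months, each taken when Egr-1 protein was highest (H) and when it was lowest (L). The hours of H and L changed with age, from ZT13 and ZT17 at 2 months to ZT9 and ZT21 at 6 months and ZT5 and ZT21 at 12 months. The KO mice carried floxed Egr-1 alleles and a Cre driven by the albumin promoter, which acts in hepatocytes, so the other cells of the liver keep Egr-1. The KO lines came from strain 129 and had been backcrossed to C57BL/6J. No combination of age, time and genotype was sequenced more than 1 time, and the study speaks of several mice per group without saying whether the library of a group pools them, so every test below draws its error from the other ages, times or pairs.

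Forkhead proteins bind DNA through a winged-helix domain. Foxa1, Foxa2 and Foxa3 are pioneer factors that open hepatocyte enhancers, and Foxa1 and Foxa2 together are needed for liver development. Foxo1 and Foxo3 are held in the cytoplasm when insulin signals through Akt, and in the fasting liver they enter the nucleus and switch on glucose production and stress defence. Foxp1 is mainly a repressor, and Foxq1 is an inducible member best known from skin, stomach and tumour epithelia.

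Total counts ranged from 13375377 to 16557378 per library in the time course and from 13747706 to 21748956 in the genotype cohort. Levels are given as CPM, counts scaled by library size and TMM factor. The bars and intervals of a single library are 95% Poisson limits, exact, of its count and hold no other error. In the genotype cohort the targeted gene, Egr1, was lower in the library labelled KO in 4 of 6 pairs. It was higher there in the 2-month L pair, at 7.43 CPM against 1.45 CPM, and about level in the 12-month H pair, at 6.11 CPM against 5.83 CPM. The count is per gene, and which part of Egr1 was deleted is not given in the sources used here. All 5 hepatocyte markers listed were detected, with a summed level of 39085 CPM or more in every library. Fewer cells of a type and less RNA per cell cannot be told apart in whole liver.

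To compare genes with one another, CPM were divided by the exon length in kilobases. Foxa3, the most abundant of the 7 in the time course, had a median level of 26.9 CPM per kb over 18 libraries, with a range of 17.7 to 48.0. Foxa2 followed at a median level of 9.04 CPM per kb, and its highest library, at 14.3, was below the lowest of Foxa3. Foxa1 followed at a median level of 4.92 CPM per kb, below Foxa2 in 18 of 18 libraries although the ranges touched. The 3 pioneer factors therefore stood in one order in every time-course library.

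The FoxO genes were lower. Foxo3 had a median level of 3.37 CPM per kb and was below Foxa1 in 16 of 18 libraries. Foxq1 had a median level of 2.67 CPM per kb, and Foxo1 had 2.04. Foxq1 was above Foxo1 in 12 of 18 libraries and below Foxo3 in 14, so these neighbours were not separated. Foxp1 was lowest at a median level of 0.718 CPM per kb, and its highest library, at 1.08, was below the lowest of Foxo1, at 1.34. Foxq1 had the widest span of the 7 in both experiments, but it was chosen on its cohort values. Its highest level was 6.63 times its lowest in the time course and 10.5 times in the genotype cohort. The other 6 spanned 1.92 to 2.99 times and 1.61 to 3.75 times. The time-course span of Foxq1 rested on ZT9 and ZT5 of 2 months, and within 6 and 12 months Foxq1 spanned 2.16 and 1.89 times.

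In the genotype cohort the order was the same apart from Foxq1, whose median level of 1.99 CPM per kb was below that of Foxo1 at 2.70. Foxa3 (median level 30.5 CPM per kb) and Foxa2 (18.9) overlapped there. The 7 genes were well covered, with at least 61 counts in every library. Foxq1 overlaps A530084C06Rik on the opposite strand, and that gene was listed at 0 in all libraries. Whether counting used the strand is not stated. The genes that overlap Foxo1 and Foxp1 reached at most 0.117 CPM.

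The genes lie on 7 chromosomes of GRCm38, the genome build mm10 of the files. Foxq1 is at chr13:31556134-31560976 on the plus strand. Foxa1 is at chr12:57540628-57546916, Foxa2 at chr2:148042877-148046969 and Foxa3 at chr7:19013284-19023538, all on the minus strand. Foxo1 is at chr3:52268336-52353221 on the plus strand, and Foxo3 at chr10:42181841-42276755 and Foxp1 at chr6:98925338-99522721 are on the minus strand.

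Because Egr-1 is the factor deleted here, the 250 bases before each RefSeq start of 6 members (10 starts, RefSeq, GRCm38.p6) were searched on both strands for its GC-rich site, written as GCGNGGGCG. No start of Foxq1 was available in the sources used here, so Foxq1 was not searched. The forkhead site TGTTTAC, the E-box CACGTG bound by the clock factors and the D-box TTATGTAA were searched too. The site of Egr-1 was found before 1 start each of Foxo3 and Foxp1, against 4.7% of all 32851 windows. The forkhead site was found before Foxa1, against 3.17% of all windows. No E-box (6.02% of all windows) or D-box (0.819%) was found for these 6 genes in this window. Each start named here is a RefSeq start, and the Foxa1 and Foxp1 matches lie inside the gene spans given above. The matches follow, 5′ to 3′ on the strand of the gene, in capitals between 10 bases on either side, as a description of letters only.
Foxo3, chr10:42276834-42276862, 157 to 149 bases before the start: ccgcgcaggcGCGAGGGCGcacacacgcg
Foxp1, chr6:99028379-99028407, 99 to 91 bases before one of its starts: ggggcgcgggGCGCGGGCGgagcccattg
Foxa1, chr12:57546236-57546262, 141 to 135 bases before the start: atactgctttGTAAACAaagtgagggc

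The first question put to the time course was whether the level over the whole day differed between ages. At 6 against 2 months Foxo3, Foxa2 and Foxa1 fell, to 0.688, 0.693 and 0.819 of the 2-month level, and at 12 against 2 months Foxo3 and Foxa1 fell. No member was called higher between any pair of ages, although Foxa3 was at 6 against 2 months with no filter on low counts. In the quasi-likelihood test of edgeR with the time of day as a block and Benjamini-Hochberg adjustment over all genes, 3 of 7 members were called lower at 6 months, where 6.73% of all 13948 genes were lower and 13.6% were called in either direction. At 12 against 2 months 2 of 7 were called lower, where 5.18% of all genes were lower and 11.7% were called. At 12 against 6 months 1 of 7, Foxa3, was called lower, where 7.58% of all genes were lower and 16.1% were called.

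**Figure D1:**
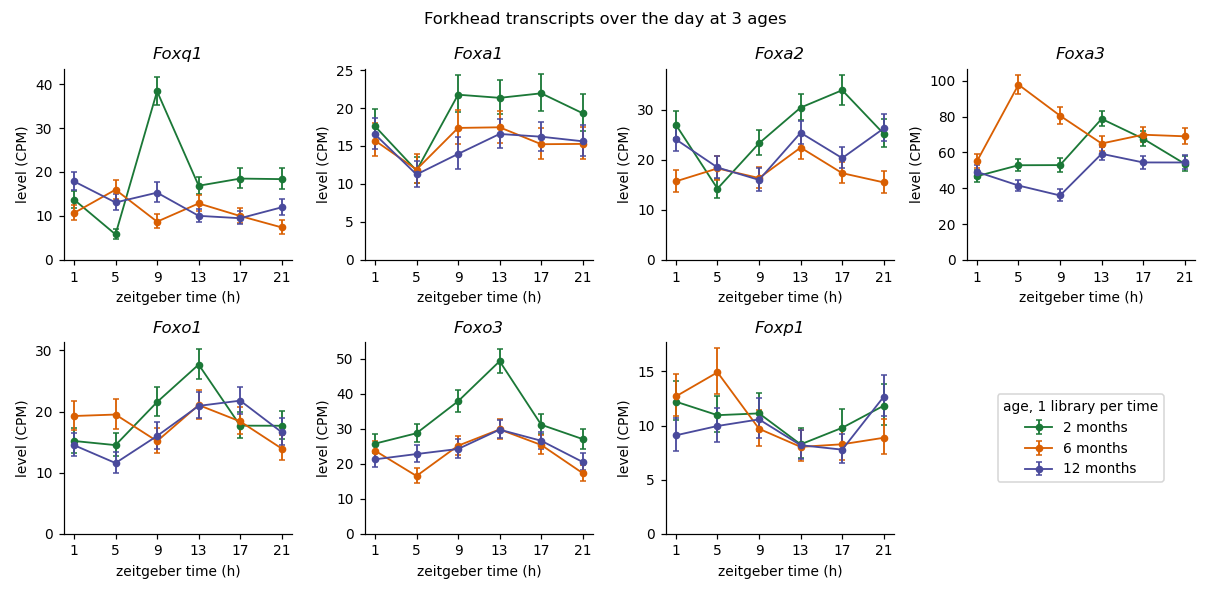
Level of each forkhead transcript (CPM, vertical axis from 0) against zeitgeber time (hours) at 2 (green), 6 (orange) and 12 months (blue), with 1 library per point and exact Poisson 95% intervals as bars. Foxo3 was highest at 2 months at all 6 times, and the 2-month Foxq1 value at ZT9, 38.4 CPM, was the highest of its 18 libraries.

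Foxo3, a stress-response and longevity-associated factor, had the clearest difference. In CPM its levels at ZT1, 5, 9, 13, 17 and 21 were 25.7, 28.7, 37.8, 49.3, 31.1 and 27.0 at 2 months. They were 23.7, 16.5, 25.1, 29.8, 25.3 and 17.3 at 6 months. They were 21.2, 22.8, 24.2, 29.7, 26.5 and 20.5 at 12 months. Both older ages were below 2 months at 6 of 6 times. The log2 fold change was -0.54 ± 0.09 (SE) at 6 months (adjusted p = 0.0016, edgeR) and -0.43 ± 0.09 at 12 months (adjusted p = 0.0077, edgeR). The 6- and 12-month levels differed by 0.11 ± 0.10 on the log2 scale (adjusted p = 0.48, edgeR). The 6-month call of Foxo3 held in 11 of 11 alternative fits and the 12-month call in 11 of 12, all but that without the ZT block (adjusted p = 0.10, edgeR).

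Foxa2, a pioneer factor that also governs bile acid and lipid genes, had levels of 27.0, 14.3, 23.3, 30.5, 34.0 and 25.2 CPM at 2 months in the same order of times. At 6 months the levels were 15.7, 18.3, 16.4, 22.5, 17.4 and 15.5 CPM. At 12 months they were 24.1, 18.5, 16.0, 25.4, 20.4 and 26.3 CPM. The 6-month libraries were lower at 5 of 6 times, all but ZT5, and the 12-month libraries at 4 of 6. The log2 fold change was -0.53 ± 0.14 (SE) at 6 months (adjusted p = 0.019, edgeR) and -0.22 ± 0.14 at 12 months (adjusted p = 0.34, edgeR). The value at 12 against 6 months was 0.31 ± 0.14 (adjusted p = 0.14, edgeR). The 6-month call held in 8 of 11 alternatives and was lost without ZT1, ZT17 or ZT21, at -0.48, -0.43 and -0.50.

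Foxa1, the partner of Foxa2 in opening enhancers, had a narrow range. Its 2-month levels were 17.6, 11.8, 21.8, 21.3, 21.9 and 19.3 CPM. Its 6-month levels were 15.7, 11.9, 17.4, 17.5, 15.2 and 15.3 CPM, lower at 5 of 6 times. Its 12-month levels were 16.5, 11.2, 14.0, 16.6, 16.2 and 15.6 CPM, lower at 6 of 6 times. The trough at ZT5 was shared by the 3 ages. The log2 fold change was -0.29 ± 0.09 (SE) at 6 months (adjusted p = 0.037, edgeR) and -0.31 ± 0.09 at 12 months (adjusted p = 0.029, edgeR). These calls stood close to the threshold. That at 6 months held in 3 of 11 alternatives and was lost without any ZT but ZT5 (-0.31 to -0.23), and that at 12 months held in 5 of 12 and was lost without ZT9, ZT13, ZT17 or ZT21 (-0.31 to -0.26).

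Foxa3, the Foxa gene expressed most in adult hepatocytes, went another way. Its 2-month levels were 46.7, 52.8, 52.9, 78.8, 67.6 and 53.6 CPM. Its 6-month levels were 55.0, 97.8, 80.5, 65.0, 69.9 and 69.0 CPM. Its 12-month levels were 49.2, 41.5, 36.0, 59.2, 54.4 and 54.4 CPM, below 6 months at 6 of 6 times. The fall from 6 to 12 months was -0.55 ± 0.14 (log2, SE; adjusted p = 0.013, edgeR), and it was largest at ZT5 and ZT9. Without ZT5 or without ZT9 Foxa3 was no longer called, at -0.41 (adjusted p = 0.054, edgeR) and -0.44 (adjusted p = 0.076, edgeR). The values against 2 months were 0.31 ± 0.14 at 6 months (adjusted p = 0.15, edgeR, and 0.33 with adjusted p = 0.047 without the filter) and -0.24 ± 0.14 at 12 months (adjusted p = 0.29, edgeR).

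**Figure D2:**
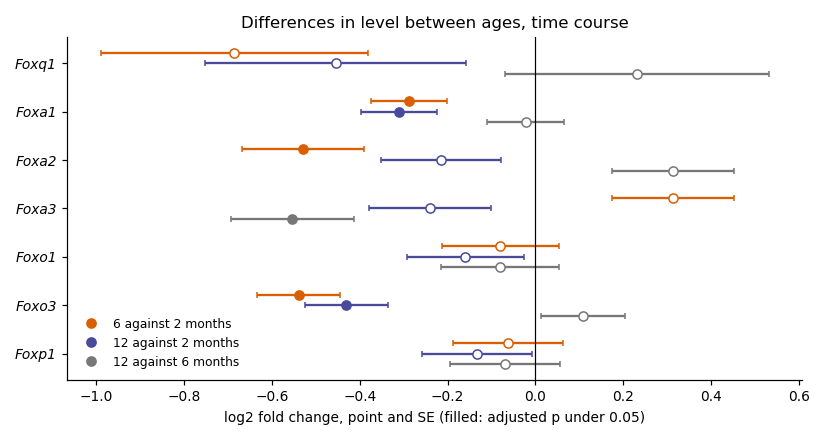
Fitted log2 fold change (point) and its SE (bar) of each forkhead gene at 6 against 2 months (orange), 12 against 2 months (blue) and 12 against 6 months (grey), with filled points for adjusted p under 0.05. Foxo3 and Foxa1 are filled for both comparisons with 2 months, Foxa2 for 6 months alone and Foxa3 for 12 against 6 months alone.

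Foxq1 had the lowest fitted value against 2 months and the widest error. In CPM its 2-month levels were 13.7, 5.79, 38.4, 16.9, 18.5 and 18.4, so the highest and the lowest of its 18 libraries were ZT9 and ZT5 of the same age. Its 6-month levels were 10.7, 16.0, 8.69, 12.8, 9.97 and 7.38 CPM. Its 12-month levels were 17.9, 13.1, 15.3, 10.02, 9.47 and 12.0 CPM. The 6-month libraries were lower at 5 of 6 times and the 12-month libraries at 4 of 6. The log2 fold change was -0.69 ± 0.30 (SE) at 6 months (adjusted p = 0.15, edgeR) and -0.46 ± 0.30 at 12 months (adjusted p = 0.36, edgeR), and neither passed. Without ZT5 the 6-month value was called, at -1.04 (adjusted p = 0.011, edgeR), and so was it with no filter on low counts, at -0.67 (adjusted p = 0.0024, edgeR).

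Foxo1, the main insulin-controlled FoxO of the liver, had levels of 14.5 to 27.7 CPM (median 17.7) at 2 months, 13.9 to 21.1 (median 18.8) at 6 months and 11.6 to 21.8 (median 16.3) at 12 months. The ages overlapped, and the log2 fold changes were -0.08 ± 0.13 and -0.16 ± 0.13 (SE), with adjusted p = 0.76 and 0.48 in edgeR. Foxp1 ranged from 8.26 to 12.2 CPM at 2 months, 8.03 to 14.9 at 6 months and 7.77 to 12.7 at 12 months. Its log2 fold changes were -0.06 ± 0.13 and -0.13 ± 0.13 (SE), with adjusted p = 0.80 and 0.54 in edgeR.

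The 6-month libraries of the time course also carried high acute-phase transcripts. The summed level of Saa1, Saa2 and Lcn2 was 8554 to 42150 CPM at 6 months, against 107 to 379 CPM at 2 months and 33.2 to 2089 CPM at 12 months. Their hepatocyte marker sum was 52898 to 102240 CPM against 86785 to 99937 CPM at 2 months, and the endothelial sum was 213 to 329 CPM against 169 to 239 CPM. The neutrophil and red cell sum was 1444 to 4085 CPM against 915 to 1674 CPM, and the macrophage sum was 274 to 382 CPM against 259 to 304 CPM. The part of these differences in the 6-month results was not tested. The 12 against 2 month comparison was repeated on those 12 libraries alone, and Foxo3 (-0.43, adjusted p = 0.0058, edgeR) and Foxa1 (-0.31, adjusted p = 0.038, edgeR) were again called.

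The next question was whether the members had a daily rhythm. Foxo3 and Foxp1 did in the fit that gives the 3 ages one 24-h curve, with opposite timing, since Foxo3 peaked around the start of the night and Foxp1 in the early day. This was 2 of 7 members, where 15.8% of all 13733 genes were called by edgeR with Benjamini-Hochberg adjustment. The fitted peak of Foxo3 was at ZT12.7 with a peak-to-trough ratio of 1.56 (adjusted p = 0.0029, edgeR), and its highest library was ZT13 at each age. The fitted peak of Foxp1 was at ZT2.6 with a ratio of 1.45 (adjusted p = 0.041, edgeR). At ZT13 Foxp1 was 8.16 ± 0.12 CPM (SD, n = 3 ages), the lowest mean of its day, whereas Foxo3 was 36.3 ± 11.3 CPM (SD, n = 3 ages), the highest mean of its day.

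Foxo1 had a fitted peak at ZT14.0 with a ratio of 1.45 and stood at the threshold (adjusted p = 0.051, edgeR). Its highest libraries were ZT13 at 2 and 6 months and ZT17 at 12 months. Foxa1, Foxa2, Foxa3 and Foxq1 had fitted peaks at ZT15.8, ZT17.0, ZT14.3 and ZT8.2, with adjusted p of 0.092, 0.14, 0.39 and 0.58 in edgeR. The call of Foxo3 held in 22 of 22 alternative fits, with adjusted p up to 0.013 (edgeR or DESeq2). The call of Foxp1 held in 10 of 22, with adjusted p up to 0.28 (edgeR) without the 6-month libraries, where the members called were Foxo3 and Foxo1.

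Within an age there were 6 libraries, and an exact permutation test of the order of the values against a 24-h wave could not go below p = 0.0333. At 2 months 1 of 7 members reached that value, where 8.66% of 12470 genes did, and it was Foxo3, whose ZT1 level of 25.7 CPM contrasted with 49.3 CPM at ZT13. At 6 months 0 of 7 did, where 8.18% of genes did. At 12 months 1 of 7 did, where 6.43% of genes did, and it was Foxo1, from 11.6 CPM at ZT5 to 21.8 CPM at ZT17. The curve did not differ detectably between ages. For 6 against 2 months 0 of 7 members were called by edgeR, where 0.105% of 14268 genes were, and 1 of 7, Foxa3, had an unadjusted p under 0.05, as had 10.5% of genes. For 12 against 2 months 0 of 7 were called, where 0% of genes were by edgeR and 9 genes were by DESeq2. In edgeR 657 genes had an unadjusted p under 0.05 there, 4.6% of those tested, and 0 of the 7 members. A rhythm called at one age and not at another is therefore not shown to differ between them.

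The genotype cohort asked what deletion of Egr-1 did to these genes. None of the 6 members other than Foxq1 passed for the difference over the 6 pairs, with log2 fold changes (KO over WT) of -0.17 to -0.01 and adjusted p of 0.52 or more in edgeR, and 0 of 6 had an unadjusted p under 0.05. Of all 14843 genes, 1.36% were called and 15.3% had an unadjusted p under 0.05. None passed for a difference between H and L, where 0.00674% of genes were called by edgeR and 5.07% had an unadjusted p under 0.05, as had 0 of 6 members. Egr1 itself was not lower in 2 of the libraries labelled KO, and with those 2 pairs left out 0 of 6 members were called.

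**Figure D3:**
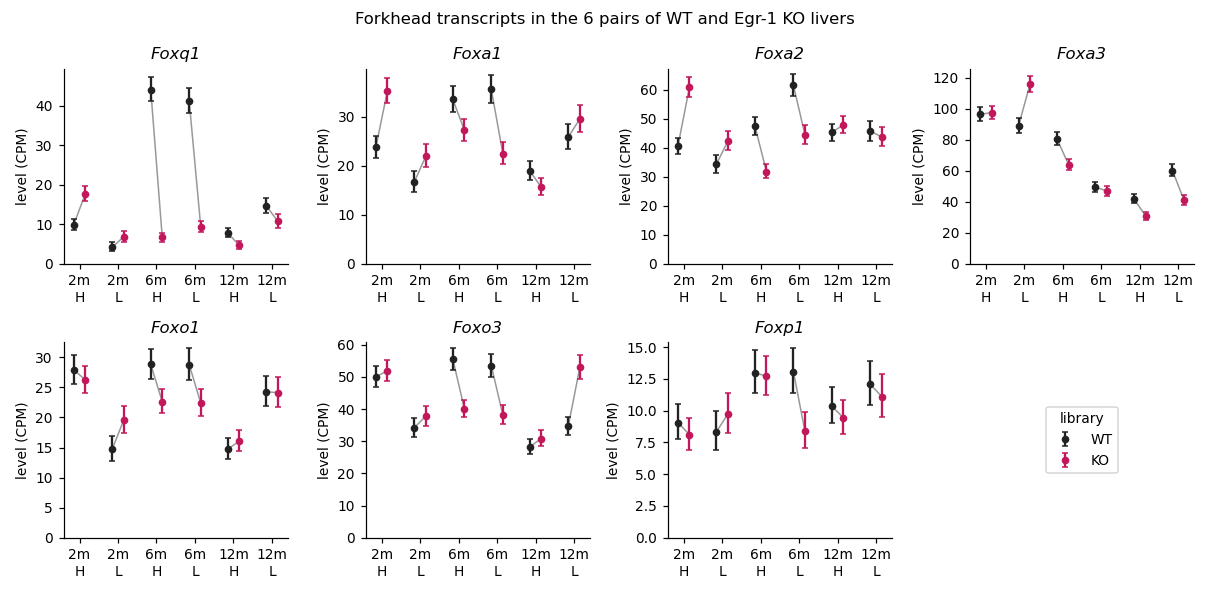
Level of each forkhead transcript (CPM, vertical axis from 0) in the libraries labelled WT (black) and KO (pink) of the 6 pairs, joined by a grey line within a pair, with exact Poisson 95% intervals for 1 library per point. All 7 genes are lower in the library labelled KO in both 6-month pairs, Foxq1 from 44.1 to 6.66 CPM at H and from 41.1 to 9.38 CPM at L.

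The pairs did not move alike at each age. At 6 months the library labelled KO was lower in both pairs for all 7 members, and for all 6 without Foxq1, where 25.5% of genes were lower in both. At 2 months it was higher in both pairs for Foxq1, Foxa1, Foxa2, Foxa3 and Foxo3. Higher in both pairs at 2 months and lower in both at 6 months held for 4 of 6 members without Foxq1, where 5.48% of genes did so. That pattern is the one of Foxq1, which was chosen on its values in these same libraries, so the count is a description and no test. At 2 months Foxa3 at H and Foxo3 at H and L were within their counting intervals. In the edgeR test of a genotype difference that varies with age, 0 of 6 were called after Benjamini-Hochberg adjustment, where 0.0135% of genes were. An unadjusted p under 0.05 was seen for 4 of 6 (Foxa2, Foxo3, Foxa1 and Foxa3), where 3.22% of genes had one. The 6 genes share the same 12 libraries and are not independent of one another.

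Foxq1 itself is described without a test. Its levels in the pair at 2 months H were 9.88 CPM in the library labelled WT and 17.7 CPM in that labelled KO. In the 2-month L pair they were 4.20 and 6.85 CPM. In the 6-month pairs they were 44.1 and 6.66 CPM at H and 41.1 and 9.38 CPM at L. The 2 WT libraries of 6 months stood above all the other 10, and the KO libraries of that age were within the range of the other ages. In the 12-month pairs the levels were 7.82 and 4.64 CPM at H and 14.7 and 10.8 CPM at L. The WT level was 6.62 and 4.38 times the KO level at 6 months, and 1.68 and 1.37 times at 12 months, whereas the KO level was 1.79 and 1.63 times the WT level at 2 months. The log2 fold change over the 6 pairs was -0.82, and without the 6-month pairs it was 0.08.

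Set beside C57BL/6J mice of the same age and ZT in the time course, a table scaled separately, the 6-month WT level of Foxq1 was 5.07 and 5.57 times as high. The KO levels at that age, 6.66 and 9.38 CPM, were near those of C57BL/6J, 8.69 and 7.38 CPM. The 2-month WT level was 0.586 and 0.227 of that of C57BL/6J, and the 12-month WT level was 0.598 and 1.23 times it. Foxa1, Foxa2, Foxo1 and Foxo3 were also higher in the 6-month WT libraries than in C57BL/6J, by 1.90 to 3.97 times. Over the 3 ages Foxa2 and Foxo3 were higher in WT at 6 of 6 matched points and Foxa1, Foxa3 and Foxo1 at 5 of 6. Foxp1 was higher at 4 of 6 and Foxq1 at 3 of 6. Some points counted as higher were within counting error, the lowest of Foxa2 and Foxo3 being 1.01 and 1.02 times. The share of all genes higher in WT was not computed, so these counts are a description. With 1 library per point, these ratios have no replicate check.

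**Figure D4:**
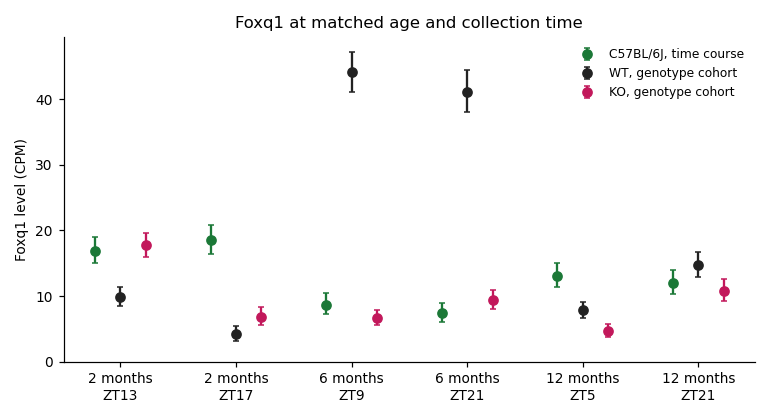
Level of Foxq1 (CPM, vertical axis from 0) in C57BL/6J of the time course (green), WT (black) and KO (pink) of the genotype cohort at the 6 matched combinations of age and zeitgeber time, 1 library per point with exact Poisson 95% intervals. The 6-month WT libraries, at 44.1 and 41.1 CPM, stand above all other points, which lie between 4.20 and 18.5 CPM.

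Egr1 was 72.4 and 24.9 CPM in the 6-month WT libraries at H and L, against 4.96 and 7.60 CPM in C57BL/6J. It was 54.8 CPM in the 12-month L library of WT, where Foxq1 was 14.7 CPM. Myc in the 6-month WT libraries was 28.2 and 11.9 times its C57BL/6J level, which was 1.08 and 1.49 CPM. At 2 and 12 months the WT level was 0.823 to 3.84 times that of C57BL/6J for Egr1 and 0.287 to 1.22 times for Myc. The relation of Egr1 to Foxq1 was not tested. The hepatocyte marker sum was lower in the library labelled KO in 6 of 6 pairs, at 0.468 to 0.724 of the WT sum. The stellate sum was higher in 6 of 6 pairs, at 1.03 to 1.64 times. The macrophage, lymphocyte and endothelial sums were lower in KO in 1, 2 and 3 of 6 pairs. The neutrophil and red cell sum was lower in 4 of 6 and the cholangiocyte sum in 5 of 6. The sum of Saa1, Saa2 and Lcn2 was lower in 3 of 6. In the 6-month pairs that sum was 92.2 CPM in WT and 851 CPM in KO at H, and 524 and 73.7 CPM at L. The part of these differences in the genotype results was not tested.

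The Foxa genes differed in how they lay between the genotypes. Foxa2 at 2 months was 40.5 CPM in WT and 60.8 CPM in KO at H, and 34.3 and 42.3 CPM at L. At 6 months it was 47.5 and 31.8 CPM at H, and 61.5 and 44.5 CPM at L. At 12 months the pairs were within their counting intervals, at 45.2 and 47.8 CPM and at 45.7 and 43.7 CPM. The log2 fold change fitted within an age was 0.43 ± 0.13 (SE) for the 2-month pairs, -0.52 ± 0.13 for the 6-month pairs and 0.00 ± 0.13 for the 12-month pairs. The adjusted p was 0.39 or more in edgeR for each.

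Foxa1 had the same signs at 2 and 6 months. Its levels in WT and KO were 23.8 and 35.2 CPM at 2 months H, and 16.7 and 21.97 CPM at 2 months L. They were 33.6 and 27.3 CPM at 6 months H, and 35.6 and 22.5 CPM at 6 months L. At 12 months they were 18.9 and 15.6 CPM at H and 25.9 and 29.6 CPM at L, in opposite directions. Foxa3 was lower in KO in both 12-month pairs, at 41.9 and 30.9 CPM at H and 60.2 and 41.1 CPM at L, and its log2 fold change at that age was -0.50 ± 0.14 (SE; adjusted p = 0.62, edgeR).

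Foxo3 was nearly level between WT and KO at 2 months, at 50.0 and 51.9 CPM at H and 34.2 and 37.9 CPM at L. At 6 months it was 55.5 and 40.1 CPM at H, and 53.5 and 38.2 CPM at L. At 12 months KO was the higher, at 28.3 and 30.8 CPM at H and 34.6 and 53.0 CPM at L. The fitted log2 fold changes were 0.09 ± 0.14, -0.48 ± 0.14 and 0.36 ± 0.14 (SE), with adjusted p of 0.95, 0.47 and 0.65 in edgeR. Foxo1 was 28.9 and 22.6 CPM at 6 months H and 28.8 and 22.4 CPM at 6 months L, a log2 fold change of -0.36 ± 0.14 (SE; adjusted p = 0.62, edgeR). Foxp1 was 12.99 and 12.7 CPM at 6 months H and 13.1 and 8.38 CPM at 6 months L. Within each age 0 of 6 members were called by edgeR, where 0%, 0.0337% and 0% of genes were at 2, 6 and 12 months. An unadjusted p under 0.05 was seen for 2, 4 and 2 of the 6, where 6.54%, 7.79% and 7.16% of all genes had one.

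Genes whose level ran most like each member over the 18 time-course libraries were taken from the 13947 other genes tested, by Pearson's r of log2(CPM + 0.5). These correlations share libraries and depth and are a description. Foxq1 ran most like Myc, a growth-control transcription factor (r = 0.89), then Cish, a feedback inhibitor of cytokine signalling (r = 0.79), and Phlda1 (r = 0.78). Over the 12 genotype-cohort libraries, r with Foxq1 was 0.53, 0.68 and 0.78 for these genes. Without the 2 libraries in which Foxq1 was farthest from its median, r with Myc was 0.82 in the time course. In the cohort Myc was 30.3 and 17.7 CPM in the 6-month WT libraries and at most 11.6 CPM in the others. Those libraries were also highest for Foxq1, and r was not computed without them in the cohort. KO was lower than WT in 4 of 6 pairs for Foxq1 and in 2 of 6 for Myc. In both 12-month pairs Foxq1 was lower and Myc higher in KO, for Myc within the counting intervals at H.

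**Figure D5:**
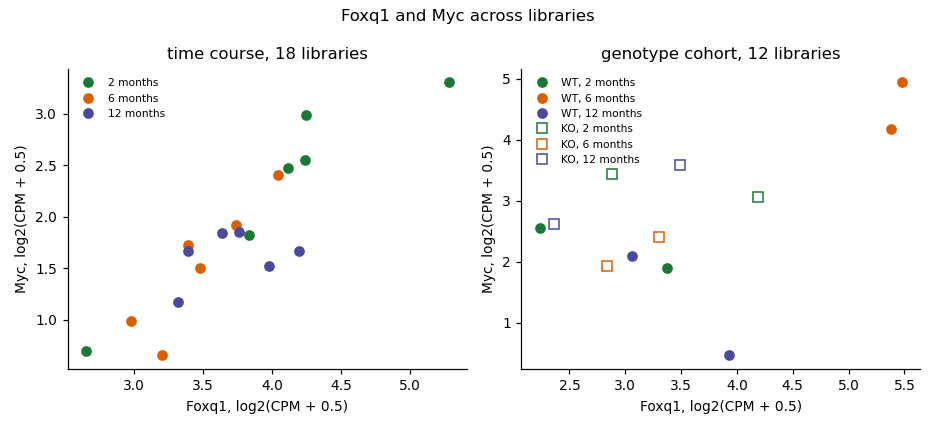
Foxq1 (horizontal) against Myc (vertical), both as log2(CPM + 0.5), in the 18 libraries of the time course (left, coloured by age) and the 12 of the genotype cohort (right, WT as filled circles and KO as open squares). Pearson's r is 0.89 on the left and 0.53 on the right, where the 6-month WT libraries are highest for both genes. Foxq1 was chosen on its cohort values, and r on the right was not computed without those libraries.

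For Foxo3 the most alike genes included Mfn1 and Teddm2 (r = 0.87 and 0.86), with r of 0.56 and -0.37 in the cohort. For Foxo1 they were Rad54l2, Adarb1 and the clock repressor Per1 (r = 0.82, 0.82 and 0.81), with 0.71, 0.61 and 0.56 in the cohort. For Foxa3 they were Ints7, Sema6a and Gfra1 (r = 0.93, 0.90 and 0.90), with 0.29, 0.26 and 0.70. Of the neighbours named for these 3 members, all but Teddm2 had a positive r in the cohort. For Foxa1 they were Bcorl1, Immt and Klf3 (r = 0.81, 0.79 and 0.78), with 0.78, -0.05 and 0.45. For Foxa2 they were Rhobtb1, Ppp5c and Pmpca (r = 0.79, 0.78 and 0.77), with 0.56, 0.08 and -0.16. For Foxp1 they were Med15, Ick and Fermt2 (r = 0.87, 0.83 and 0.82), with -0.23, -0.02 and 0.47. Among the members themselves, Foxa1 and Foxa2 were the most alike pair in the time course (r = 0.71), and Foxa1 and Foxo1 in the cohort (r = 0.89).

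Of the 37 other forkhead genes listed, 12 passed the filter on low counts in the time course. At 6 against 2 months 2 of 12 were called lower and 0 higher by edgeR, where 6.73% and 6.83% of all genes were. The 2 called were Foxn3, a repressor linked to liver glucose control (log2 fold change -0.51 ± 0.10, SE), and Foxk1, a regulator of glycolysis genes (-0.40 ± 0.11). The list's median was 0.12 against 0.01 over all genes. Foxf1, a stellate and mesenchymal factor, rose at 12 months, by 0.84 ± 0.20 against 2 months and 0.59 ± 0.19 against 6 months (log2, SE). It was 1 of 12 called in each, where 6.47% and 8.57% of all genes were called higher. The stellate marker sum was 336 to 478 CPM at 12 months against 292 to 352 CPM at 2 months, and its part in the rise of Foxf1 was not tested. Foxk1 and Foxk2 were the 2 of 10 called for the shared daily rhythm, where 15.8% of all genes were called. In the genotype cohort 0 of 15 were called over the 6 pairs by edgeR, and 2 had an unadjusted p under 0.05, as had 15.3% of all genes.

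Of 14 regulators of FoxO, the insulin receptor to Akt pathway and its partners, 0 were called at 6 against 2 months by edgeR, and 2 had an unadjusted p under 0.05, as had 27.5% of all genes. Sgk2, a kinase related to Akt, rose at 12 months against both 2 months (0.67 ± 0.18, log2, SE) and 6 months (0.82 ± 0.18). It was the 1 of 14 called in each, where 6.47% and 8.57% of all genes were called higher. Pik3r1 and Irs2, which carry the insulin signal from the receptor, were the 2 of 14 with a shared daily rhythm, where 15.8% of all genes were called. Of 23 textbook FoxO targets, 4 fell and 0 rose at 6 against 2 months, where 6.73% of all genes were called lower and 6.83% higher, and the list median was -0.18 against 0.01 over all genes. Those 4 were Cat, the hydrogen peroxide enzyme (-0.65 ± 0.11), Sesn3 (-0.61 ± 0.13), G6pc, the last step of glucose release (-0.98 ± 0.25), and Apoc3 (-0.33 ± 0.09).

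At 12 against 2 months 4 of 23 FoxO targets rose and 2 fell, where 6.47% and 5.18% of all genes did, with a list median of -0.03 against 0.00. Gadd45a, a growth-arrest gene, rose by 1.16 ± 0.18 and Pdk4, which spares glucose in fasting, by 0.96 ± 0.22 (log2, SE). Sesn3 fell by 0.67 on the log2 scale, and Pck1, named after its values were seen, fell by 0.88. At 12 against 6 months 7 of 23 rose, among them Bnip3, Pdk4 and Cat, and 0 fell, where 8.57% and 7.58% of all genes did. Foxo3 was lower than at 2 months at both older ages, while its listed targets were called in both directions at 12 months. For the shared daily rhythm 11 of 23 were called, led by Bnip3, a mitophagy gene, and Pdk4, against 15.8% of all genes. In the genotype cohort 0 of 23 targets and 0 of 14 regulators were called over the 6 pairs by edgeR, and 3 targets and 2 regulators had an unadjusted p under 0.05, against the same 15.3% of all genes.

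Of 12 Foxa targets 11 were tested. At 6 against 2 months 2 of 11 fell, against 6.73% of all genes, Cps1, the first enzyme of the urea cycle (-0.83 ± 0.12, log2, SE), and Abcc2, a canalicular exporter (-0.67 ± 0.13). At 12 against 2 months 3 of 11 fell, Cyp7b1, Pck1 and Cps1, and 0 rose, where 5.18% and 6.47% of all genes did. The medians were -0.22 and -0.24 against 0.01 and 0.00 over all genes. At 12 against 6 months 3 of 11 rose, Ttr, Cps1 and Alb, against 8.57% of all genes, and Cyp7b1 fell by 1.18 on the log2 scale. Over the 6 pairs of the genotype cohort 2 of 11 were lower in KO, Alb (-0.89 ± 0.10, log2, SE; adjusted p = 0.0075, edgeR) and Apob (-0.39 ± 0.07; adjusted p = 0.039, edgeR), and 0 were higher, where 0.721% and 0.64% of all genes were. Alb, Ttr and Cps1 are also among the 5 hepatocyte markers of the sums given above. In the time course the median of that sum was 95017, 72196 and 97662 CPM at 2, 6 and 12 months. The part of the marker sums in the results for Foxa targets was not tested.

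Of 12 other hepatocyte transcription factors, 0 were called at 6 against 2 months by edgeR, and 3 had an unadjusted p under 0.05, where 27.5% of all genes had one. Onecut1, 1 of 12, fell at 12 against 2 months by 0.71 on the log2 scale, where 5.18% of all genes were called lower. At 12 against 6 months 3 of 12, Xbp1, Cebpb and Onecut2, fell by 0.63, 0.83 and 0.35, where 7.58% of all genes were called lower. The shared daily rhythm was called for 4 of 12, among them Onecut1, Nr5a2 and Xbp1, where 15.8% of all genes were called. In the genotype cohort 0 of 12 were called over the 6 pairs by edgeR, and 3 had an unadjusted p under 0.05, where 15.3% of all genes had one.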

How the data were processed

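Poly(A) RNA of mouse liver was sequenced as paired ends in 30 libraries. According to the submitters' processing notes the authors used fastp, HISAT2, featureCounts and mm10, and deposited raw counts per gene, whole numbers without normalization (versions, annotation and strand setting not given in the sources used here). Cohort IDs were paired with symbols for 55144 of 55471 rows. Counts were scaled by TMM and tested with edgeR 4.0.16 (R 4.3.3), using filterByExpr, quasi-likelihood fits and Benjamini-Hochberg adjustment at 0.05, with ZT as a block for ages, a 24-h sine and cosine for rhythm, and the pair of age and time as a block for genotype. Differences within an age were added after the data were seen. DESeq2 1.42.0, RLE factors, no filter, other blocks and leave-one-out were alternatives. The rhythm within an age was tested by exact permutation over genes with a mean CPM above 1. The SE is the fold change divided by the root of F. Exon lengths and positions came from GENCODE M21. The scripts were tested on simulated data. Members and gene lists were chosen with earlier results of these data known. Named genes were the 7 members, Egr1, up to 4 called genes with the smallest p per list and comparison, and the 3 genes of highest r per member. Some genes that this rule names are not reported here. Myc, Saa1, Saa2 and Lcn2 levels were chosen after the values were seen. With 1 library per condition, p-values measure only the spread between these libraries. Total counts per library (13375377 to 21748956) limit single values only by counting error.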

Additional observations from a re-analysis of the deposited data

Results flagged for a closer look

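No single library of a member lay apart from the other 5 of its age (time course) or genotype (cohort) in any of the 35 groups of 6 tested by Dixon's criterion. That criterion uses the gap to the nearest library, so it cannot mark 2 libraries that stand out together. The 6-month WT levels of Foxq1, 44.1 and 41.1 CPM, stood above all other cohort libraries and were not marked. By chance alone that criterion marks about 1 in 20 such groups. Between ages, 8 differences met the condition that both pairs of one age moved one way and both of another age the opposite way. Of all genes, 5.48% were higher in KO in both 2-month pairs and lower in both 6-month pairs. The share of genes for the other differences was not computed. The 2-month H pair of Foxa3 counted as higher although it was within its counting intervals. For Foxq1 the difference was not tested, since the gene was chosen on it. The mean log2 ratio of KO to WT was lower by 3.2 at 6 than at 2 months (value -3.2), and at 12 against 2 months the difference was -1.38. For Foxa1, Foxa2, Foxa3 and Foxo3 at 6 against 2 months the differences were -0.96, -0.97, -0.4 and -0.58. For Foxa3 at 12 against 2 months the difference was -0.69, and for Foxo3 at 12 against 6 months it was 0.85. For these 4 genes the edgeR test of genotype by age gave an adjusted p of 1.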

How the results depend on the processing

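All alternatives bear on 1 library per condition, so each leave-one-out fit assumes that the remaining libraries vary alike. At 6 against 2 months 1 to 4 members were called when a ZT was left out (3 in the reported fit), Foxo3 in each, and without ZT1, ZT17 or ZT21 it was alone. At 12 against 2 months 1 to 2 were called without a ZT. Without the filter 1 was called, with a 24-h curve in place of the ZT block 1, and with no ZT block 0, against 2 reported. At 12 against 6 months 0 to 1 were called without a ZT. For the shared rhythm 1 to 3 were called when a library was left out, and 1 without the filter, against 2 reported. An edgeR cosinor within an age gave 4, 2 and 1 members at 2, 6 and 12 months at an unadjusted p under 0.05, and 0 at each age after adjustment, against 1, 0 and 1 by the exact test. For each genotype comparison 0 of 6 members were called in every alternative run. Of all genes, the 202 called over the 6 pairs became 636 without the filter, 408 with DESeq2, 39 without the pair block, 45 to 137 without 1 pair, 2 at H alone, 54 at L alone, 9 in the 4 pairs with less Egr1 in KO and 0 without the 6-month pairs. The 2 called for genotype by age became 100 without the filter and 11 with DESeq2, and the 15 called for a change of rhythm at 6 months became 133 and 206. With no ZT block the 1892, 1625 and 2252 genes called between ages became 1082, 986 and 1429. The 0, 5 and 0 genes called for genotype at 2, 6 and 12 months became 172, 229 and 129 without the filter and 26, 48 and 17 with DESeq2, the 1 for genotype by time became 117 and 19, and the 0 for a change of rhythm at 12 months became 4 and 9. Without 1 ZT the fewest genes called between ages were 1196 (6 against 2 months, without ZT5), 955 (12 against 2, without ZT9) and 1285 (12 against 6, without ZT9). Adjusted p-values without the filter are over more genes and are not comparable gene by gene. The causes were not tested. No fold change of a called member reversed its sign. The genotype test is paired, WT with KO of one age and time, and its count without that block is given above. Pairing by replicate number could not be made, since each condition has 1 library and no number. Low counts did not limit the members, with 61 counts or more in every library.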
